A study of Mus musculus with 24 samples.

Results

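The 44 genes described here encode the contractile machinery of skeletal muscle, its calcium handling and its energy supply, with a few muscle regulators. They were taken by symbol from a list, and all 44 were found among the 18368 genes of the expression table. By role they were 10 thick filament genes, 9 thin filament genes, 9 genes of the Z disc and scaffold, 6 of calcium handling, 6 of energy supply and 4 regulators, of which Vgll2 is a transcriptional cofactor and Asb10, Asb5 and Trim63 are known or predicted parts of ubiquitin ligases. By textbook fibre type 14 were fast genes, 7 were slow genes and 23 were neither. RNA-seq was run on full-thickness skin. The mice were of the outbred stock CD-1 and were 7 weeks old, in telogen, the resting phase of the hair cycle. Each of the 12 mice was used for a single site, with 4 mice each for abdomen, back and cheek, and gave 1 wound library and 1 library of unwounded skin from beside the wound. Wounds were full-thickness 2 mm punches, 1 per mouse on the cheek and 2 on the abdomen or back, and were collected at day 3. The study asked how the transcriptome differs between sites with different embryonic origins, in intact skin and during repair. No allele, transgene or drug treatment distinguished the groups.

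Skeletal muscle contracts when myosin thick filaments pull on actin thin filaments, which are anchored at the Z disc. Calcium released from the sarcoplasmic reticulum starts contraction through the troponin complex on the thin filament, and creatine kinase, glycolysis and myoglobin supply energy and oxygen. Fast and slow fibres use different genes for the same parts, so many contractile proteins come in fast and slow versions. Mouse skin holds a thin sheet of skeletal muscle, the panniculus carnosus, beneath its dermis and fat. In such bulk tissue, fewer muscle fibres and less RNA per fibre cannot be told apart.

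Short promoter stretches are shown for 4 members. Myh1 and Myh4, fast myosin heavy chain genes that lie side by side on chromosome 11, are shown because their order of levels differed between back and cheek, and Tnni1 and Tnnt1 because these slow troponin genes rose in wounds while fast troponin genes did not. RefSeq promoters (build GRCm38.p6) were matched for 37 of the 44 members, with 45 start sites, and the 250 bases before each start were searched on both strands. The 120 bases before the start follow, 5′ to 3′ on the strand of the gene, with capitals for matches to CAGCTG, to TATAAA or to the CArG box bound by serum response factor.
Myh1 chr11:67199982-67200101, plus strand: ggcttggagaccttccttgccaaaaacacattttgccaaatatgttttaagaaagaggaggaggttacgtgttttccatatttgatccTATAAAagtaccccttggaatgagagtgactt
Myh4 chr11:67237692-67237811, plus strand: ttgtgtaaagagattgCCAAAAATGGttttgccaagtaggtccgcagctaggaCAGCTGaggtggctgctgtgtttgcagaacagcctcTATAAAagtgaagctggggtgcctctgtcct
Tnni1 chr1:135799301-135799420, plus strand: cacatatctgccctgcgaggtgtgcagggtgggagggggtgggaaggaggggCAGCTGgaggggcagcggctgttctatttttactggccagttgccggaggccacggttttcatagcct
Tnnt1 chr7:4515976-4516095, minus strand: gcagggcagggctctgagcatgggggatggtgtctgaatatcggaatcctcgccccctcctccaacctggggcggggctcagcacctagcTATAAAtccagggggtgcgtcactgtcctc
The TATAAA letters stood in the printed stretches of Myh1, Myh4 and Tnnt1, CAGCTG in those of Myh4 and Tnni1, and a CArG box in that of Myh4. The E-box CANNTG, the general motif of MyoD family factors, was present in 39 of 45 member promoters (86.7%) and in 66.2% of all 32851 promoters. Its form CAGCTG was present in 22 (48.9%) and in 13.0% of all. The MEF2 motif, which may overlap TATAAA, was present in 7 (15.6%) and in 2.92% of all, the CArG box in 4 (8.89%) and in 1.47% of all, and TATAAA in 8 (17.8%) and in 12.4% of all. These are matches of letters, and binding was not measured.

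Levels are given as FPKM, read fragments corrected for transcript length and for the size of the library, which allows levels of different genes to be compared per length. Lists of 4 values follow mice 1 to 4 of a site. Acta1, skeletal muscle alpha-actin, had the highest FPKM of the members in all 24 libraries. The members summed to 26365, 996, 4837 and 25637 FPKM in unwounded abdomen, 27284, 36829.8, 23069.5 and 33800.5 FPKM in unwounded back and 36836, 41685, 20592 and 25371 FPKM in unwounded cheek. Abdomen mice 2 and 3 stood apart from all other unwounded libraries. Mouse 2 had the lowest value of the 4 abdomen mice for 41 of 44 members, and for 38 members mice 1 and 4 were both above mice 2 and 3. Mouse 2 was below all 8 back and cheek libraries for 39 members and mouse 3 for 38, against 11 members for mouse 1 and 6 for mouse 4. Of all FPKM in a library, the members made up between 0.197% in unwounded abdomen mouse 2 and 7.93% in unwounded cheek mouse 2. The fast fibre genes carried nearly all fibre-type specific signal: in unwounded skin they summed to between 485 and 23727 FPKM per library, and the slow fibre genes to between 7.31 and 95.7 FPKM.

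In wounds the sums were 3153, 4343, 7303 and 9258 FPKM for the abdomen, 6957, 7628, 5284 and 7233 FPKM for the back and 12117, 10319, 8282 and 11032 FPKM for the cheek. Within each back mouse the sum was 3.92-fold to 4.83-fold lower in the wound than in the unwounded skin, and within each cheek mouse 2.30-fold to 4.04-fold lower. Abdomen mice 1 and 4 had wound sums that were 8.36-fold and 2.77-fold lower, whereas mice 2 and 3 had wound sums 4.36 times and 1.51 times the unwounded sum. The direction in the abdomen therefore differed between mice. Defining genes of smooth muscle were present in every library, with a sum of 8 genes between 208 and 353 FPKM in unwounded skin and between 188 and 260 FPKM in wounds. Of 6 heart muscle genes, 4 or 5 stayed under 1 FPKM in all 4 unwounded libraries of each site, and their sum was at most 16.7 FPKM there.

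**Figure D1:**
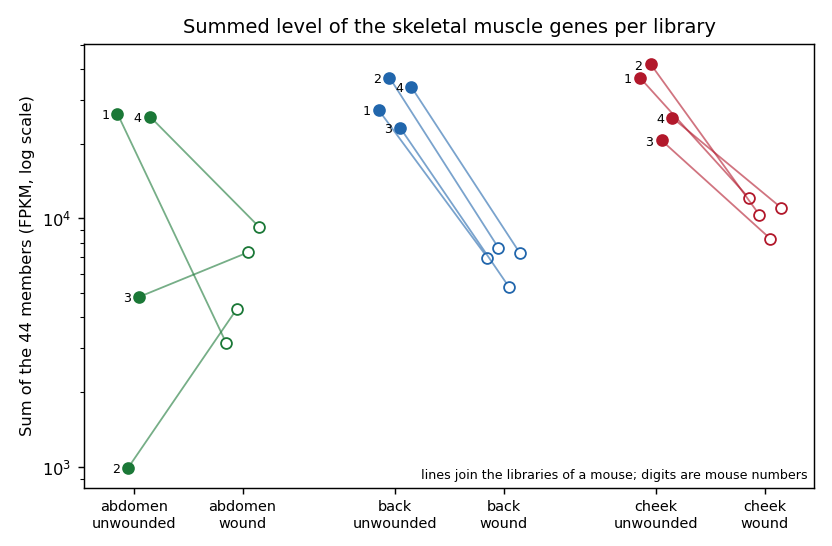
Sum of the 44 genes in FPKM (log axis) for each library, with filled points for unwounded skin, open points for wounds, lines joining the libraries of a mouse and digits giving the mouse. All back and cheek lines fall, while in the abdomen mice 1 and 4 fall and mice 2 and 3, at 996 and 4837 FPKM before wounding, rise.

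Between unwounded sites, few of these genes passed the test, although most had higher means in back and cheek than in abdomen. The test was limma on log2(FPKM + 0.5), with p adjusted over all genes tested, and fold changes are on that scale, which understates changes of low genes. For back against abdomen, 2 of the 40 members tested were higher and 0 lower, Vgll2 and Asb10, where 0.53% of all genes tested were higher and 2.67% differed in either direction. For cheek against abdomen, 2 were higher and 0 lower, again Vgll2 and Asb10, where 1.33% of all genes were higher and 2.57% differed. For cheek against back, 0 members passed with limma, with 1.05% of all genes differing. At an unadjusted p under 0.05 the members numbered 21, 22 and 2 in these comparisons. The median log2 difference over members was 1.99 for back against abdomen, 2.07 for cheek against abdomen and 0.10 for cheek against back, beside medians over all genes of -0.12, 0.03 and 0.14. All 4 libraries were apart with back higher for 11 members (2.59% of all genes) and with cheek higher than abdomen for 4 (6.16% of all genes), whereas for cheek against back the 2 such genes, Myh4 and Tnnt1, compare with 12.4% of all genes. Tnnt1 was also the 1 member with all back libraries below all abdomen libraries (10.7% of all genes). The first pair of comparisons shares the abdomen libraries, and abdomen mice 2 and 3 lowered the abdomen mean of nearly every member. With mice 2 and 3 left out, a choice made because of their low values and so given with no test, the median log2 difference over members was 0.22 for back and 0.30 for cheek against abdomen.

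The count of members called for back against abdomen was 1, Vgll2 alone, when any 1 of 10 libraries was left out, that is each but abdomen mice 1 and 4. For cheek against abdomen it was 5 without abdomen mouse 4, 1 without cheek mouse 3, and 0 without abdomen mouse 2 or 3, back mouse 1 or 4, or cheek mouse 1, 2 or 4. For cheek against back it was 1 without abdomen mouse 3 or cheek mouse 4.

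Among the myosin heavy chains, the motor proteins of the thick filament, the order of the fast genes differed by site. Myh1, which encodes the heavy chain of fast IIx fibres (chr11:67200102-67224577, GRCm38), was measured at 250.4, 9.56, 73.8 and 358 FPKM in the abdomen, 448, 809.5, 613 and 834 FPKM in the back and 491, 517, 198 and 359.6 FPKM in the cheek. Myh4, which encodes that of fast IIb fibres (chr11:67237812-67260447), was at 297, 18.1, 44.6 and 769 FPKM in the abdomen, 198, 126, 154 and 173 FPKM in the back and 682, 971, 461 and 622 FPKM in the cheek. Myh1 exceeded Myh4 in all 4 back libraries and Myh4 exceeded Myh1 in all 4 cheek libraries, while in the abdomen Myh4 was the higher in mice 1, 2 and 4 and Myh1 in mouse 3. The group means of Myh4 were 282 ± 348 FPKM in abdomen, 163 ± 30.4 FPKM in back and 684 ± 213 FPKM in cheek, and those of Myh1 were 173 ± 160.0, 676 ± 182 and 391 ± 146 FPKM (each SD, n = 4). Every cheek library was above every back library for Myh4, yet the log2 difference of 2.04 ± 0.98 (SE) had a limma adjusted p of 0.263, in a fit whose spread is shared by the 3 sites. Without abdomen mice 2 and 3, an alternative chosen after seeing the data, the same difference had a limma adjusted p of 0.0111. Myh1 gave -0.84 ± 0.96 for cheek against back (adjusted p = 0.629) and 2.86 ± 0.96 for back against abdomen (adjusted p = 0.135, limma).

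Shares within a library do not carry the amount of muscle. Of the summed FPKM of Myh1, Myh2, Myh4 and Myh7, Myh1 held 65.2% to 80.1% in unwounded back and 27.9% to 39.1% in unwounded cheek, and Myh4 held 12.5% to 28.9% and 54.4% to 65.1%. In the abdomen Myh4 held 36.5% to 65.3% and Myh1 30.4% to 60.4%. This contrast was noticed in the values and is given as a description. Myh2, the heavy chain gene of fast IIa fibres, was at 42.9, 3.53, 3.89 and 51.2 FPKM in the abdomen, 40.9, 74.9, 23.6 and 61.6 FPKM in the back and 81, 51.7, 48.1 and 54.1 FPKM in the cheek, and the sites overlapped. It held 3.18% to 11.3% of the sum in abdomen, 2.98% to 7.41% in back and 3.36% to 6.79% in cheek. Myh7, the slow heavy chain gene, was listed at 0 in all 8 abdomen and back libraries and at 0.66, 0.52, 1.76 and 0.01 FPKM in cheek. The heavy chain genes are close paralogues, and reads that fit several of them were divided by the estimation of the authors, which makes their split less certain than that of other members.

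**Figure D2:**
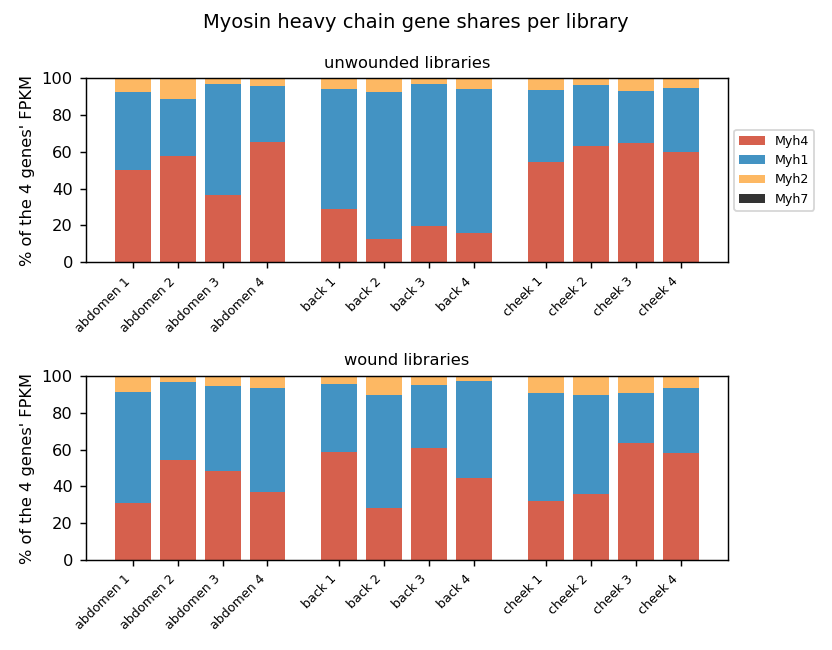
Stacked bars of the percent of the summed FPKM of 4 myosin heavy chain genes in each library, unwounded above and wound below, labelled by site and mouse. Myh1 fills 65.2% to 80.1% of the unwounded back bars and Myh4 54.4% to 65.1% of the unwounded cheek bars, and in wounds Myh4 holds between 28.5% and 63.4% of every bar.

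Light chains and binding proteins of the thick filament were mostly fast genes. Mylpf, the fast regulatory light chain, was at 2512, 77.7, 398 and 1921 FPKM in the abdomen, 1962, 2367, 1666 and 2202 FPKM in the back and 2898, 3487, 1521 and 1855 FPKM in the cheek. Myl1, the fast essential light chain, was at 2291, 78, 433 and 2242 FPKM in the abdomen, 1615, 1820.5, 1107 and 2070.0 FPKM in the back and 2329.5, 3067, 1371 and 1650.5 FPKM in the cheek. For both genes abdomen mice 1 and 4 lay within the range of back and cheek, while mice 2 and 3 lay below it. Myl2, the slow and cardiac regulatory light chain, was listed at 0 in all back libraries, at 0, 0.10, 0 and 0 FPKM in abdomen and at 10, 2.99, 12.9 and 0 FPKM in cheek, so cheek mice 1 to 3 had it and mouse 4 did not. The slow essential light chain Myl3 stayed at or below 2.52 FPKM in unwounded skin, with that value in cheek mouse 3. Mybpc1 and Mybpc2, the slow and fast myosin binding proteins C, had means of 189 ± 46.6 and 169 ± 35 FPKM (SD, n = 4) in back. Mybpc1, despite its name as the slow form, was thus of the same order as Mybpc2 in skin with next to no slow myosin.

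Thin filament genes held the highest levels. Acta1 was measured at 5879.6, 181, 1023 and 4839.8 FPKM in the abdomen, 7519.8, 9737, 6172 and 7966 FPKM in the back and 6933, 7221, 3845 and 4997 FPKM in the cheek, so that all 4 back libraries exceeded all abdomen libraries. Tnnt3, the fast troponin T that binds tropomyosin, was at 2156, 87, 451 and 2332 FPKM in the abdomen, 2595, 3604, 2288 and 3653 FPKM in the back and 3739, 4265, 2040.3 and 2474 FPKM in the cheek. Its slow counterpart Tnnt1 was at 10.1, 5.51, 18 and 5.26 FPKM in the abdomen, 1.33, 2.59, 0.93 and 3.78 FPKM in the back and 38.2, 12.1, 28.3 and 6.95 FPKM in the cheek. Tnnt1 was lowest in the back, where no library reached the lowest abdomen or cheek library. The log2 difference of Tnnt1 was 2.89 ± 0.59 for cheek against back (limma adjusted p = 0.0515) and -1.90 ± 0.59 for back against abdomen (adjusted p = 0.111), neither of which passed. With a pseudocount of 0.1, cheek against back had an adjusted p of 0.0488. Abdomen mice 2 and 3, low in the fast genes, were at 5.51 and 18.02 FPKM for Tnnt1, inside the range of mice 1 and 4 or above it.

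The other troponins follow the pattern of a high fast and a low slow form. Tnni2, fast troponin I, which inhibits contraction at rest, was at 1147, 36.9, 218 and 1110.1 FPKM in the abdomen, 1157, 1748, 1054 and 1689 FPKM in the back and 1679.7, 1921, 913 and 1145 FPKM in the cheek. Tnni1, the slow form, was at 1.88, 0.18, 1.62 and 0.37 FPKM in the abdomen, 0.25, 0.32, 0.12 and 1.01 FPKM in the back and 1.77, 0.95, 2.52 and 1.3 FPKM in the cheek. Tnni1 stayed below 3 FPKM everywhere in unwounded skin. Tnnc2, the calcium sensor of fast fibres, was at 2523, 77.8, 433 and 2266 FPKM in the abdomen, 2239, 3138, 2111 and 3006 FPKM in the back and 3578, 4079, 1942 and 2415 FPKM in the cheek. Tnnc1, its slow and cardiac counterpart, was at 0.10, 0.19, 0 and 0.29 FPKM in the abdomen, 0.10, 0.30, 0 and 0.21 FPKM in the back and 2.09, 1.08, 3.65 and 0 FPKM in the cheek. As with Myl2, Tnnc1 was highest in cheek mice 1 to 3 and listed at 0 in cheek mouse 4, the mouse in which Myh7 was at 0.01 FPKM. Neb, the giant ruler protein of the thin filament, ranged over unwounded libraries from 1.37 to 51.9 FPKM, and the tropomyosin gene Tpm2 from 82.2 to 983 FPKM.

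Z disc genes included structural and signalling parts. Des, the intermediate filament desmin, was at 547, 44.6, 144 and 544 FPKM in the abdomen, 524, 729, 474 and 592 FPKM in the back and 632, 766, 378 and 459.8 FPKM in the cheek. Tcap, which caps titin at the Z disc, was at 441, 18.6, 83.3 and 441 FPKM in the abdomen, 397, 578, 339 and 602 FPKM in the back and 699.8, 726, 443 and 386 FPKM in the cheek. Abdomen mouse 2 was the lowest library for both, with 44.6 FPKM of Des and 18.6 FPKM of Tcap. Myoz1, the fast calsarcin that tethers calcineurin to the Z disc, was at 251, 7.52, 29.9 and 251 FPKM in the abdomen, 200.1, 281, 179.6 and 247 FPKM in the back and 348, 436, 193 and 253 FPKM in the cheek. Myoz2, the slow and cardiac calsarcin, was at 24.1, 1.33, 1.73 and 10.6 FPKM in the abdomen, 18.2, 36.8, 13.6 and 28.5 FPKM in the back and 42.5, 23.8, 19.7 and 16.1 FPKM in the cheek. In every unwounded library Myoz1 exceeded Myoz2. Actn3, the alpha-actinin of fast fibres, departed from most members in the order of its back and abdomen means. Its highest library was abdomen mouse 1 at 202 FPKM, and its mean in back was 95.3 ± 39.7 FPKM (SD, n = 4) beside 97.2 ± 87 FPKM in abdomen. Means of Myh4, Tnnt1 and Tnni1 were also higher in unwounded abdomen than in back (282 against 163, 9.7 against 2.2 and 1.01 against 0.425 FPKM). On the log2 scale of the tests, 38 of 40 members were higher in back than in abdomen, Actn3 (0.74) and Myh4 (0.45) among them. The broad scaffold genes Actn2, Nrap, Smpx and Ttn had log2 differences of 2.05, 2.16, 1.45 and 1.75 for back against abdomen, none of which passed (limma adjusted p from 0.174 to 0.371).

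Calcium handling and energy genes were high in most libraries. Atp2a1, the calcium pump SERCA1 of fast fibres, was at 838, 36.2, 120.4 and 1089.5 FPKM in the abdomen, 1266, 1789, 1114 and 1516 FPKM in the back and 2192, 2588, 1244 and 1701 FPKM in the cheek. All back and cheek libraries were above all abdomen libraries for this gene, with a log2 difference of 2.88 ± 0.94 for cheek against abdomen (limma adjusted p = 0.137). Pvalb, parvalbumin, a calcium buffer of the fastest fibres, was at 886, 31.3, 214 and 1053 FPKM in the abdomen, 659, 774, 632 and 1167 FPKM in the back and 1254, 1465, 856 and 754 FPKM in the cheek. Its sites overlapped. The release channel Ryr1, the voltage sensor Cacna1s, the calcium store protein Casq1 and the junctional protein Trdn had log2 differences between 1.51 and 1.98 for back against abdomen. Ckm, muscle creatine kinase, was at 2572, 70.7, 377 and 2465 FPKM in the abdomen, 2386, 3053, 1692 and 2808 FPKM in the back and 3422, 3626, 1859 and 2258 FPKM in the cheek. Mb, myoglobin, was at 686, 29.2, 156 and 492 FPKM in the abdomen, 729, 1321, 479.7 and 891 FPKM in the back and 1387, 938, 644 and 658 FPKM in the cheek. Both were spread widely in the abdomen, where the ratio of the highest to the lowest library was 36.4 for Ckm and 23.5 for Mb, against 1.8 and 2.75 in back. Ckmt2, mitochondrial creatine kinase, was at 71.6, 4.09, 10.4 and 55.8 FPKM in the abdomen, 112, 219, 108 and 146 FPKM in the back and 192, 299, 105 and 151 FPKM in the cheek. Ckmt2 had the largest log2 difference of this group, 3.04 ± 0.81 for cheek against abdomen (limma adjusted p = 0.0809), with every cheek and back library above every abdomen library. Eno3, Pgam2 and Pygm, muscle forms of enolase, phosphoglycerate mutase and glycogen phosphorylase, gave 2.11, 2.21 and 2.44 for back against abdomen.

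The regulators held the members that passed. Vgll2, a cofactor of TEAD transcription factors in muscle (chr10:52022502-52028471), was at 1.89, 0.15, 0.43 and 1.98 FPKM in the abdomen, 8.91, 20.6, 7.88 and 10.3 FPKM in the back and 7.9, 6.95, 4.9 and 3.75 FPKM in the cheek. The highest abdomen library was below the lowest back and the lowest cheek library. The log2 difference was 3.07 ± 0.46, adjusted p = 0.00748 for back against abdomen and 2.16 ± 0.46, adjusted p = 0.0359 for cheek against abdomen (SE, limma). Asb10, named for its ankyrin repeats and SOCS box (chr5:24532697-24540978), was at 2.74, 0.11, 0.72 and 3.94 FPKM in the abdomen, 11.2, 13.3, 6.1 and 8.89 FPKM in the back and 14.6, 15.7, 7.5 and 9.5 FPKM in the cheek. It too had no overlap of abdomen with back or cheek, with 2.47 ± 0.56, adjusted p = 0.0473 and 2.71 ± 0.56, adjusted p = 0.0366 (limma). Without abdomen mice 2 and 3, as values with no test, the log2 differences were 2.25 and 1.34 for Vgll2 and 1.4 and 1.64 for Asb10, for back and cheek against abdomen. Leaving out each unwounded library in turn, Vgll2 kept its call for back against abdomen in all 12 fits (adjusted p from 0.00425 to 0.0312, limma). For cheek against abdomen Vgll2 lost it in 8 fits, and kept it without abdomen mouse 1 or 4 or back mouse 2 or 3 (adjusted p up to 0.123). Asb10 lost its call in 10 fits for back, keeping it without abdomen mouse 1 or 4 (up to 0.135), and in 7 fits for cheek, keeping it without abdomen mouse 1 or 4, back mouse 2 or 3 or cheek mouse 3 (up to 0.123).

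Asb5, a further ankyrin repeat and SOCS box gene, was at 17, 0.84, 3.74 and 21.5 FPKM in the abdomen, 22.4, 36.1, 23 and 52.4 FPKM in the back and 36.6, 44.6, 20.8 and 24 FPKM in the cheek, with all back libraries above all abdomen libraries (log2 2.22 ± 0.80, adjusted p = 0.155, limma). Trim63, which encodes the ubiquitin ligase MuRF1 of muscle wasting, was at 15, 0.63, 6.79 and 14.2 FPKM in the abdomen, 18.8, 25.7, 22.2 and 41.1 FPKM in the back and 13.3, 26.7, 13.6 and 14.6 FPKM in the cheek. It was likewise higher in every back than in every abdomen library, and did not pass (2.00 ± 0.74, adjusted p = 0.165, limma). To set aside the amount of muscle, each regulator was also divided by the other 43 members and is given per 10000 FPKM of them. On this scale Vgll2 was at 0.717, 1.51, 0.889 and 0.772 in abdomen, 3.27, 5.6, 3.42 and 3.05 in back and 2.15, 1.67, 2.38 and 1.48 in cheek, so the back libraries stayed above all others. Asb10 was at 1.04, 1.1, 1.49 and 1.54 in abdomen, 4.12, 3.62, 2.64 and 2.63 in back and 3.97, 3.77, 3.64 and 3.75 in cheek. All abdomen libraries were below both other sites for Asb10, whereas abdomen and cheek overlapped for Vgll2. Asb5 was between 6.45 and 8.44 in abdomen, 8.20 and 15.5 in back and 9.46 and 10.7 in cheek. Trim63 was between 3.60 and 14.1 over the unwounded libraries, and its abdomen values overlapped those of both other sites. Over the members, all back libraries were above all abdomen libraries on this scale for 7 and below them for 7. All cheek libraries were above those of the abdomen for 7 and below them for 3. These relative levels are a description. Abdomen mice 2 and 3 did not stand apart from mice 1 and 4 on this scale for Asb10, whose 4 values were close.

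**Figure D3:**
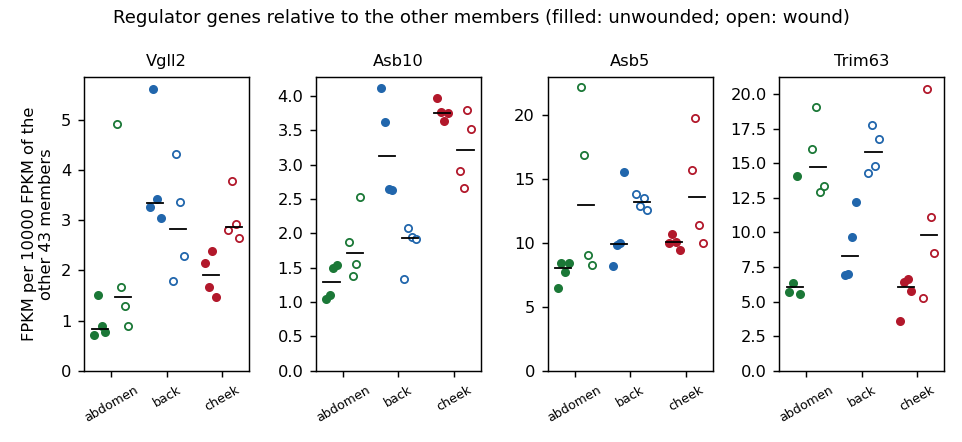
FPKM of the 4 regulator genes per 10000 FPKM of the other 43 members, for each unwounded (filled) and wound (open) library by site, with black lines at group medians. Unwounded abdomen points of Vgll2 (0.72 to 1.51) and Asb10 (1.04 to 1.54) lie below those of unwounded back, and Trim63 points are higher in abdomen wounds (12.9 to 19.1) than in 3 of the 4 unwounded abdomen libraries.

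Most of these genes were lower in back wounds than in unwounded back skin, fewer passed the test in the cheek, and slow troponin genes were higher in wounds. Wound effects were estimated with limma within mice, over the 24 libraries, with mouse as a term. In the back 31 of 44 members fell and 3 rose, where 17.9% of all genes tested fell and 28% rose. In the cheek 9 fell and 2 rose, where 16.9% of all genes fell and 19.7% rose. In the abdomen 0 fell and 3 rose with limma, where 16% of all genes fell and 16.9% rose, and at an unadjusted p under 0.05 no member was lower there either. At a threshold of 0.001, 2 fell and 3 rose in the back (4.37% and 10% of all genes), 0 and 2 in the cheek (2.19% and 6.5%) and 0 and 2 in the abdomen (1.04% and 3.92%). The rises counted at each site include Tnnc1, which was tested because of its wound values. Over members the median log2 fold change of wounds was -0.34 for the abdomen, -2.07 for the back and -1.38 for the cheek, beside -0.01, 0.07 and 0.01 over all genes. Without abdomen mice 2 and 3, again with no test, the abdomen median was -1.99. Lower values in 4 of 4 mice were seen for 39 members in the back (22.6% of all genes), 36 in the cheek (25.4%) and 0 in the abdomen (25%).

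Counts in the cheek and abdomen depended on single libraries. The cheek count of 11 members called rose to 31 when abdomen mouse 1 was left out and to 34 when abdomen mouse 2 was, which enter through the shared spread, and was 4, 3, 4 and 7 without cheek mice 1 to 4. From the 8 cheek libraries alone 38 members were called, of which 36 fell. The back count of 34 was 21 without back mouse 2, and the abdomen count of 3 was 11 without abdomen mouse 2, with 8 falls. Shares of all genes called are not given for these fits. The counts thus show how calls depend on the libraries used and are no further result about the members.

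By role, the back falls covered all 6 calcium handling and all 6 energy genes, 6 of 9 thin filament genes, 6 of 9 Z disc genes, 4 of 10 thick filament genes and 3 of 4 regulators. Cheek falls were 2 of 6 calcium handling, 3 of 6 energy, 1 of 9 thin filament, 1 of 9 Z disc, 0 of 10 thick filament and 2 of 4 regulator genes. Of the 14 fast genes, 10 fell in the back and 2 in the cheek, and of the 7 slow genes 0 fell at any site. Beside these counts, 17.9% of all genes tested fell in the back and 16.9% in the cheek. Cheek counts such as 1 of 9 and 2 of 14 lie near that share and are no result about a role or fibre type. In unwounded back Myh7 and Myl2 were at 0, and Tnnc1, Myl3 and Tnni1 at most at 0.30, 0.38 and 1.01 FPKM. In unwounded abdomen Myh7 was at 0, and Myl2, Tnnc1 and Myl3 at most at 0.10, 0.29 and 0.22 FPKM. These slow genes had almost no room to fall there, so their count cannot be set against that of the fast genes. The cheek falls were those of Asb10, Ckmt2, Eno3, Myoz1, Pgam2, Pvalb, Tpm2, Trdn and Vgll2.

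**Figure D4:**
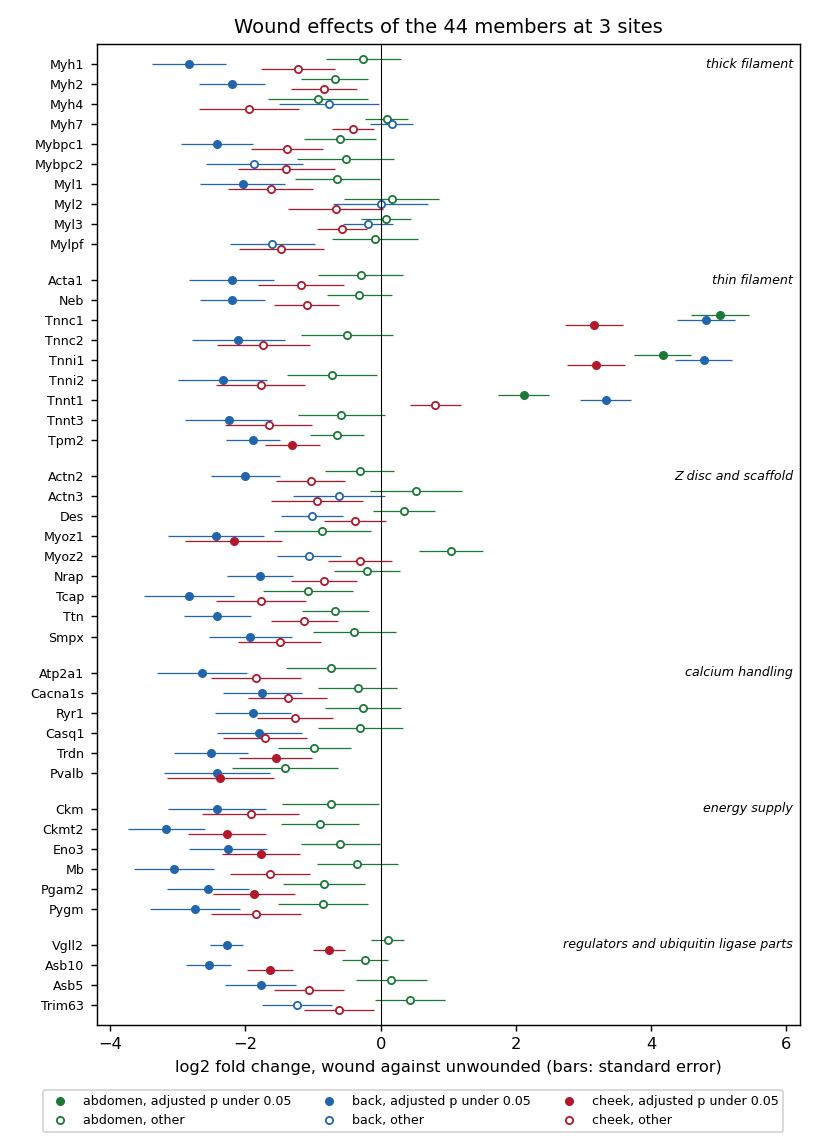
Log2 fold change of wound against unwounded skin (x axis, bars are standard errors) for each of the 44 genes, grouped by role, at abdomen, back and cheek, with filled points for an adjusted p under 0.05. Most back points lie left of 0 and reach -3.17 for Ckmt2, while Tnnc1 and Tnni1 lie between 3.16 and 5.02 at all 3 sites.

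For the myosin heavy chains, Myh1 was at 51.6, 51.6, 74.5 and 162 FPKM in abdomen wounds, 89.4, 132, 57.6 and 103 FPKM in back wounds and 259.6, 192, 87.8 and 139 FPKM in cheek wounds. It fell in the back (log2 -2.83 ± 0.55, adjusted p = 0.00206, limma), whereas the cheek gave -1.22 ± 0.55, adjusted p = 0.108. Myh4 was at 26.6, 65.8, 78.1 and 104 FPKM in abdomen wounds, 143, 61.4, 103 and 86.6 FPKM in back wounds and 142, 128, 202 and 229 FPKM in cheek wounds. Its back value was -0.77 ± 0.74, adjusted p = 0.426 (limma), and 3 of the 4 back wounds were below its lowest unwounded back library of 126 FPKM. The difference between the 2 genes was not tested. In back wounds Myh1 held 34.2% to 61.5% of the 4 heavy chain genes and Myh4 28.5% to 61.1%, and in cheek wounds 27.6% to 58.7% and 32.2% to 63.4%. Myh2 was at 7.54, 4.11, 8.37 and 17.7 FPKM in abdomen wounds, 9.86, 21.7, 8.01 and 4.86 FPKM in back wounds and 40.3, 36.9, 28.4 and 24.6 FPKM in cheek wounds, and fell in the back (-2.2 ± 0.49, adjusted p = 0.00463, limma). Myh7 was at 0.04, 0, 0.03 and 0.06 FPKM in abdomen wounds, 0.08, 0.03, 0.06 and 0.07 FPKM in back wounds and 0.27, 0.19, 0.19 and 0.70 FPKM in cheek wounds, under 1 FPKM throughout.

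Of the light chains, Mylpf was at 375, 461, 794 and 863 FPKM in abdomen wounds, 700.1, 716, 545 and 728 FPKM in back wounds and 992, 1044, 571 and 822 FPKM in cheek wounds, with back and cheek effects of -1.60 ± 0.63, adjusted p = 0.059 and -1.47 ± 0.63, adjusted p = 0.0923 (limma) that did not pass. Myl1 was at 248, 343, 469 and 736 FPKM in abdomen wounds, 494, 418, 283 and 399 FPKM in back wounds and 802, 689, 484 and 661 FPKM in cheek wounds and fell in the back (-2.04 ± 0.63, adjusted p = 0.0219, limma), a call that was lost without back mouse 2, 3 or 4 (adjusted p up to 0.068). Both genes were below their unwounded library in all back and cheek mice and above it in abdomen mouse 2. Myl2 was at 0.10, 0, 0.29 and 0 FPKM in abdomen wounds, 0, 0, 0 and 0 FPKM in back wounds and 1.93, 1.17, 1.69 and 3.84 FPKM in cheek wounds, present in all 4 cheek wounds and listed at 0 in all back wounds. Mybpc1 fell in the back by 2.42 on the log2 scale (adjusted p = 0.00402, limma).

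Among thin filament genes Acta1 was at 732, 974, 1506 and 2162 FPKM in abdomen wounds, 1659, 2034, 1318 and 1797 FPKM in back wounds and 2665, 2478, 2113 and 2641 FPKM in cheek wounds, and fell in the back (-2.2 ± 0.63, adjusted p = 0.0159, limma). Every back wound was below every unwounded back library. Tnnt3 was at 219, 376, 635 and 758 FPKM in abdomen wounds, 621, 711, 505 and 685 FPKM in back wounds and 1143, 959, 732 and 1019 FPKM in cheek wounds. Tnni2 was at 92.3, 146, 287 and 362 FPKM in abdomen wounds, 261, 312, 216 and 312 FPKM in back wounds and 472, 389, 300.3 and 444 FPKM in cheek wounds. These fast troponins fell in the back by 2.25 and 2.34 on the log2 scale, and did not pass in the cheek (adjusted p = 0.067 and 0.0579, limma). Both back calls, and that of Acta1, were lost without back mouse 2 (up to 0.0512). Tnnc2 was at 225, 357, 752 and 803 FPKM in abdomen wounds, 579, 658, 497 and 688 FPKM in back wounds and 1055, 838, 659 and 957 FPKM in cheek wounds and fell in the back (-2.10 ± 0.68, adjusted p = 0.0275, limma), a call that was lost without any 1 back mouse (adjusted p up to 0.0798). Tpm2 and Neb fell there too, by 1.89 and 2.2.

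Slow troponin genes went the other way. Tnnc1 was at 27.5, 11, 30.2 and 17.6 FPKM in abdomen wounds, 13.4, 21.3, 18.2 and 18 FPKM in back wounds and 23.9, 39.3, 10.4 and 4.61 FPKM in cheek wounds, where unwounded abdomen and back libraries had been below 0.5 FPKM. It reached the 0.5 FPKM needed for testing in 3 of 12 unwounded and 12 of 12 wound libraries, so it was tested because of its wound values. It rose at all sites, by 5.02 ± 0.43, adjusted p = 2.18e-05 in abdomen, 4.81 ± 0.43, adjusted p = 9.98e-06 in back and 3.16 ± 0.43, adjusted p = 0.000256 in cheek (limma). Tnni1 was at 28.7, 10.6, 30.8 and 30.8 FPKM in abdomen wounds, 23.2, 23.3, 19.7 and 28.1 FPKM in back wounds and 30.7, 42.8, 12.5 and 6.53 FPKM in cheek wounds. Its rises were 4.17 ± 0.42, adjusted p = 6.97e-05, 4.78 ± 0.42, adjusted p = 1.16e-05 and 3.19 ± 0.42, adjusted p = 0.000255 (limma), and each wound library exceeded all unwounded ones of its site. Tnnt1 was at 37.3, 27.2, 49.5 and 45.7 FPKM in abdomen wounds, 20.4, 26.4, 27.7 and 21.9 FPKM in back wounds and 41.2, 58.2, 32.7 and 11.6 FPKM in cheek wounds. It rose in abdomen (2.12 ± 0.38, adjusted p = 0.00226) and back (3.33 ± 0.38, adjusted p = 6.79e-05), while cheek wounds were higher in 4 of 4 mice without passing (0.81 ± 0.38, adjusted p = 0.12, limma). These 8 rises kept their call without each mouse in turn. Since Tnnc1 was tested because of its wound values, its calls and their stability add nothing to those values. None of the other slow genes passed: Myh7, Myl2 and Myl3 had wound effects between -0.67 and 0.16 with adjusted p of at least 0.243 (limma), and Myoz2 gave 1.04, -1.05 and -0.31 in abdomen, back and cheek (adjusted p of at least 0.0921). At 0 to 0.3 FPKM in the unwounded back, Tnnc1 and Myl2 fold changes depend on the added 0.5 FPKM. So does that of Tnni1, at 0.12 to 1.01 FPKM there, whose back effect ran from 4.14 to 5.75 over other settings.

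At the Z disc, Des was at 205, 217, 308 and 369.8 FPKM in abdomen wounds, 293, 365, 249.7 and 237 FPKM in back wounds and 378, 509, 434 and 353 FPKM in cheek wounds and did not pass at any site (-1.02 ± 0.46, adjusted p = 0.0917 in back, limma). Tcap was at 26.1, 52.3, 94.3 and 118 FPKM in abdomen wounds, 69.3, 69.1, 44.7 and 83.2 FPKM in back wounds and 206, 127, 166 and 147 FPKM in cheek wounds and fell in the back (-2.83 ± 0.67, adjusted p = 0.00602, limma). All back wounds were below all unwounded back libraries for both genes. Myoz1 was at 15.2, 27, 47.2 and 68 FPKM in abdomen wounds, 47.6, 42.5, 30.9 and 44.6 FPKM in back wounds and 82.5, 55, 42.2 and 90.3 FPKM in cheek wounds, and fell in back (-2.44 ± 0.72, adjusted p = 0.0181) and cheek (-2.18 ± 0.72, adjusted p = 0.0365, limma). The cheek call of Myoz1 was lost without any 1 cheek mouse (adjusted p up to 0.14) and the back call without back mouse 2 or 3. Myoz2 was at 11.9, 9.36, 11.7 and 12.9 FPKM in abdomen wounds, 9.99, 15.5, 8.01 and 10.3 FPKM in back wounds and 27.2, 27.2, 13.7 and 13.2 FPKM in cheek wounds, closer to its unwounded values. Actn3 was at 54.8, 88, 90.3 and 75.6 FPKM in abdomen wounds, 98.9, 77.8, 37.1 and 38.5 FPKM in back wounds and 45.1, 82.6, 65.9 and 40.1 FPKM in cheek wounds and gave -0.61 in back and -0.94 in cheek, neither of which passed (adjusted p = 0.489 and 0.305, limma). Actn2, Nrap, Smpx and Ttn fell in the back, by 2.01, 1.78, 1.93 and 2.42 on the log2 scale. The call of Smpx was lost without any 1 back mouse (adjusted p up to 0.0725) and that of Nrap without back mouse 4.

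All calcium handling genes fell in the back. Atp2a1 was at 72.7, 122, 202 and 286 FPKM in abdomen wounds, 249, 241, 171 and 246 FPKM in back wounds and 621, 426, 419 and 661 FPKM in cheek wounds, with -2.64 ± 0.67, adjusted p = 0.00865 in the back and -1.84 ± 0.67, adjusted p = 0.0522 in the cheek (limma). Pvalb was at 29.8, 92.3, 210.0 and 210.2 FPKM in abdomen wounds, 166, 119.98, 140.4 and 165 FPKM in back wounds and 255, 188, 113 and 304 FPKM in cheek wounds. Pvalb had the largest fall called in the cheek, -2.37 ± 0.78, adjusted p = 0.037, and fell in the back by 2.41 (adjusted p = 0.0279, limma). Leaving out cheek mouse 1, 2 or 3 ended the cheek call (adjusted p up to 0.129), and leaving out any 1 back mouse ended the back call (up to 0.0839). Trdn fell in back and cheek (-2.51 ± 0.54, adjusted p = 0.00382 and -1.55 ± 0.54, adjusted p = 0.0459), and Ryr1, Cacna1s and Casq1 in the back by 1.89, 1.75 and 1.79 on the log2 scale. Of 12 fits that each left out a mouse, the cheek call of Trdn was lost in 9, among them all 4 without a cheek mouse (adjusted p up to 0.152), and the back call of Casq1 in 7, among them all 4 without a back mouse (up to 0.101). The calls of Ryr1 and Cacna1s were lost without back mouse 2, 3 or 4.

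Energy genes held the 2 largest falls of the back, Ckmt2 and Mb. Ckmt2 was at 6.62, 7.03, 17.1 and 17.7 FPKM in abdomen wounds, 15.6, 19.4, 9.66 and 17.9 FPKM in back wounds and 60.4, 26.9, 24.4 and 40.2 FPKM in cheek wounds, with -3.17 ± 0.58, adjusted p = 0.00139 in the back, the largest fall of any member there, and -2.27 ± 0.58, adjusted p = 0.0115 in the cheek (limma). The back call held without each mouse in turn, and the cheek call was lost without cheek mouse 2 (adjusted p = 0.0682). Mb was at 76, 112, 254 and 276 FPKM in abdomen wounds, 78.4, 157, 52.7 and 129 FPKM in back wounds and 493, 222, 194 and 276 FPKM in cheek wounds, falling in the back (-3.06 ± 0.60, adjusted p = 0.00213, limma). Ckm was at 175, 299.5, 563 and 738 FPKM in abdomen wounds, 502, 472, 335 and 523 FPKM in back wounds and 854, 544, 606 and 889.8 FPKM in cheek wounds, with -2.42 ± 0.72, adjusted p = 0.019 in the back and -1.92 ± 0.72, adjusted p = 0.0587 in the cheek. Every back wound was below every unwounded back library for these 3 genes. Eno3 and Pgam2 fell in both back (-2.26 and -2.55) and cheek (-1.77 and -1.87), and Pygm in the back (-2.75). The back call of Ckm was lost without back mouse 2, 3 or 4 (adjusted p up to 0.063), and the cheek calls of Eno3 and Pgam2, like that of Tpm2, without any 1 cheek mouse (up to 0.141).

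Among the regulators, Vgll2 was at 1.55, 0.72, 0.94 and 0.82 FPKM in abdomen wounds, 1.25, 3.29, 1.78 and 1.65 FPKM in back wounds and 3.4, 3.89, 2.42 and 2.91 FPKM in cheek wounds. It fell in back (-2.28 ± 0.24, adjusted p = 1.63e-05) and cheek (-0.77 ± 0.24, adjusted p = 0.0246, limma), while the abdomen gave 0.10 ± 0.24, adjusted p = 0.773. The cheek call was lost without cheek mouse 1, 2 or 3 (adjusted p up to 0.101). Asb10 was at 0.59, 0.60, 1.14 and 2.34 FPKM in abdomen wounds, 0.93, 1.59, 1.03 and 1.39 FPKM in back wounds and 3.53, 2.75, 3.14 and 3.88 FPKM in cheek wounds, with falls of -2.55 ± 0.34, adjusted p = 0.000121 in back and -1.64 ± 0.34, adjusted p = 0.003 in cheek (limma) that held without each mouse in turn. Asb5 was at 6.97, 7.3, 6.61 and 7.65 FPKM in abdomen wounds, 9.58, 9.78, 7.14 and 9.07 FPKM in back wounds and 19, 20.3, 9.45 and 11 FPKM in cheek wounds, falling in the back (-1.78 ± 0.52, adjusted p = 0.018, limma), a call that was lost without back mouse 2 or 4. Trim63 was at 5.05, 8.27, 9.43 and 12.3 FPKM in abdomen wounds, 9.94, 13.5, 7.82 and 12.1 FPKM in back wounds and 6.4, 21, 9.2 and 9.41 FPKM in cheek wounds, and did not pass at any site (-1.24 ± 0.52, adjusted p = 0.073 in back, limma). Per 10000 FPKM of the other members, Trim63 was at 6.9, 6.98, 9.64 and 12.2 in unwounded back and 14.3, 17.7, 14.8 and 16.8 in back wounds, so its share of the muscle signal was higher in wounds. The same scale put Des at 196, 202, 209.8 and 178 in unwounded back and 440.4, 503, 496 and 339 in back wounds. Such a rise was not particular to Trim63 and Des: on this scale 18 members were higher in 4 of 4 back mice and 17 in 0 of 4.

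Ratios of a fast gene to its slow counterpart, as log2((fast + 0.5)/(slow + 0.5)) of FPKM, were compared for 6 pairs. Between unwounded sites, 0 of 18 exact permutation tests (two-sided, 4 libraries against 4, smallest possible p 0.0286) passed after adjustment over the 18, and 11 tests would have to reach the smallest p for that. The ratio of Tnnt3 to Tnnt1 was 7.67, 3.86, 4.61 and 8.66 in abdomen, 10.5, 10.2, 10.6 and 9.74 in back and 6.59, 8.4, 6.15 and 8.38 in cheek. The back libraries were above all others, with a mean 4.06 higher than abdomen, and cheek 2.88 lower than back (each exact p = 0.0286, adjusted p = 0.206). In wounds the same ratio was 2.54, 3.77, 3.67 and 4.04 in abdomen, 4.9, 4.73, 4.16 and 4.94 in back and 4.78, 4.03, 4.47 and 6.39 in cheek. It was lower in the wound for 12 of 12 mice, by a mean of 3.58 (exact sign-change test, p = 0.000488, the smallest it can give, adjusted over 6 pairs 0.000732). The ratios of Tnni2 to Tnni1 and Myoz1 to Myoz2 were likewise lower in 12 of 12 mice, with mean changes of -5.66 and -1.72 and the same p values. That of Tnnc2 to Tnnc1 was also lower in 12 of 12 mice, with a mean change of -5.77. Its slow gene was at most at 0.29 and 0.3 FPKM in unwounded abdomen and back. The unwounded ratio there follows Tnnc2 over the added 0.5 FPKM, and no test is given. Abdomen mice 2 and 3, whose fast genes were higher in the wound, also had lower ratios. For the pairs with Myh7 and Myl2 the slow gene was listed at 0 in all unwounded back libraries and stayed at most 0.29 FPKM in abdomen and back. Their ratios there follow the fast gene over the added 0.5 FPKM, and no test is given for them either. Myh4 to Myh7 was lower in 9 of 12 mice and Mylpf to Myl2 in 8 of 12.

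**Figure D5:**
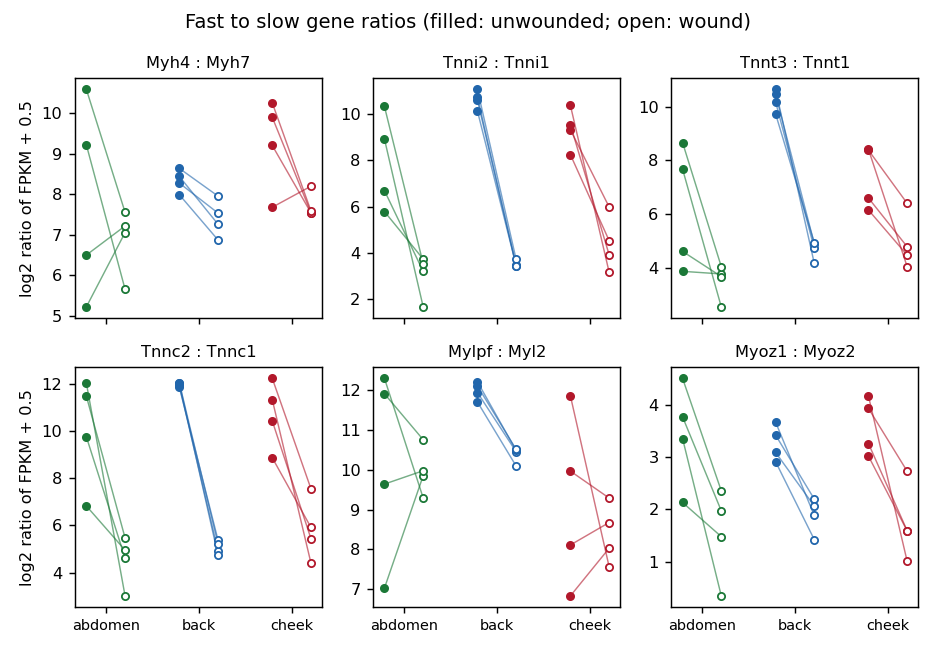
Log2 ratio of FPKM + 0.5 of a fast gene to its slow counterpart for 6 pairs, filled points unwounded and open points wound, with lines joining the libraries of a mouse. All 12 lines fall for the 3 troponin pairs and for Myoz1 to Myoz2, while those of Mylpf to Myl2 go both ways.

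Set against each other, wounds differed by site mainly through higher values in the cheek. For back wounds against abdomen wounds, 0 of 42 members tested passed with limma (2 at an unadjusted p under 0.05), where 1.27% of all genes differed. For cheek wounds against abdomen wounds 19 were higher and 0 lower, where 7.52% of all genes were higher. With all 24 libraries in 1 fit the count of 19 was 1, Vgll2. For cheek wounds against back wounds 5 were higher and 0 lower, Myl2, Ttn, Ryr1, Asb10 and Neb, where 1.9% of all genes were higher, and with all 24 libraries in 1 fit the count was 0. Every cheek wound had at least 1.17 FPKM of Myl2 and every other wound at most 0.29 FPKM. Myl2 thus entered both tests through the 4 cheek wounds alone, and its place in either count says nothing beyond these values. Nrap, a scaffold protein of growing myofibrils, gave 1.45 ± 0.25, adjusted p = 0.00965 against abdomen wounds, and Myh2 gave 1.88 ± 0.46, adjusted p = 0.0299 (limma), but with all 24 libraries their adjusted p was 0.145 and 0.103. Myh2 also lost its call without abdomen mouse 3 or any 1 cheek mouse. Ttn, the giant spring of the sarcomere, was higher in cheek wounds than in abdomen and back wounds by 1.29 and 1.29. The count of 19 was 8 when abdomen mouse 3 was left out and 29 when mouse 4 was, and 9, 8, 10 and 8 without cheek mice 1 to 4. The count of 5 was 3, 2, 1 and 1 without back mice 1 to 4, and 0 without any 1 cheek mouse, where Ttn, Ryr1, Asb10 and Neb lost their calls and Myl2 was no longer tested.

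A different call at each site does not show that wound effects differ, and the difference itself was tested with a moderated F test in limma. For 0 of 44 members did the wound effect differ between sites (adjusted p), with 7 at an unadjusted p under 0.05, where 0.0208% of all genes passed. Vgll2 had the lowest adjusted p, 0.0616, with wound effects of 0.10, -2.28 and -0.77 in abdomen, back and cheek. The count was 4 when abdomen mouse 1 was left out (Asb10, Mb, Myoz2 and Vgll2) and 1 when mouse 4 was. The 4 abdomen mice had opposite directions for most members, as given above, and the standard error of a wound effect is shared by the sites.

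Muscle genes beyond the 44 were read from lists. Of all genes tested, 16%, 17.9% and 16.9% fell in abdomen, back and cheek wounds. Of 20 other sarcomere and Z disc genes, 12 fell in back wounds, 6 in cheek wounds and 0 in abdomen wounds, and Tpm3, a tropomyosin that non-muscle cells also use, rose by 0.75, 0.95 and 0.80 in abdomen, back and cheek. The largest fall was that of Ldb3, a Z disc protein, at -2.70 in back and -1.86 in cheek. Of 15 other genes of excitation-contraction coupling, 13 fell in back and 6 in cheek wounds, led by Mylk2, skeletal myosin light chain kinase, at -3.11 in back and by the channel adaptor Stac3 at -1.61 in cheek. Of 15 other energy genes, 13 fell in back, 10 in cheek and 1 in abdomen wounds, with Cox7a1, a muscle subunit of cytochrome oxidase, at -2.95 and -2.23 in back and cheek and Ppargc1a at -0.48 in abdomen. In unwounded skin 2 of these energy genes were higher in cheek than in abdomen, Fabp3 (2.85) and Ppargc1a (0.90), where 1.33% of all genes were higher. Of 12 neuromuscular junction and membrane genes, 3, 2 and 2 rose in abdomen, back and cheek wounds, that is 25%, 16.7% and 16.7% where 16.9%, 28% and 19.7% of all genes rose. They included the acetylcholine receptor subunits Chrnd (1.82 in back) and Chrna1 (2.00 in cheek). In the same list 1, 5 and 1 fell, with Sgca at -1.77 in back and Dmd at -1.0 in cheek. For cheek wounds against abdomen wounds, 11, 8, 10 and 3 genes of these 4 lists were higher and 1 was lower, Sln (-1.91), where 7.52% of all genes were higher. The count of members in this comparison dropped with all 24 libraries in 1 fit, as given above.

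Genes of myogenesis and regenerating muscle rose in wounds of all sites, alongside the slow troponins. Of 12, 10 rose in abdomen, 9 in back and 8 in cheek wounds and 0 fell, where 16.9%, 28% and 19.7% of all genes rose. Their sum went from between 4.14 and 60.02 FPKM in unwounded libraries to between 63.9 and 484 FPKM in wounds. Of the 12 genes, 4, 3 and 4 stayed under 1 FPKM in all 4 unwounded libraries of abdomen, back and cheek. Genes that low can be tested because of their wound values, as Tnnc1 was, and such rises add nothing to those values. Actc1, the cardiac actin that developing and regenerating skeletal muscle also uses, rose most, by 5.16, 5.89 and 5.32 on the log2 scale (adjusted p = 1.38e-05, 2.04e-06 and 4.87e-06, limma). Of the heart muscle list, 3 of 4 genes tested rose at each site, led by Myl4, an atrial and embryonic light chain, at 4.66, 4.04 and 3.38. Of its 6 genes, 5, 5 and 4 stayed under 1 FPKM in all 4 unwounded libraries of abdomen, back and cheek, so the same limit holds for this count. The part of either list in the slow troponin rises was not tested.

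Markers of other cell types were read in the same wounds. Of all genes tested, 16%, 17.9% and 16.9% fell and 16.9%, 28% and 19.7% rose in abdomen, back and cheek wounds. Some counts of these short lists lie near those shares and are no result about the list. Of 8 smooth muscle genes, 5, 2 and 5 fell in abdomen, back and cheek wounds and 0, 1 and 1 rose, with Lmod1 at -1.22, -2.08 and -1.46. Of 8 adipocyte genes 8, 7 and 5 fell, and their sum was between 477 and 1443 FPKM in unwounded libraries and between 380 and 885 FPKM in wounds. Of 7 neutrophil genes 7, 6 and 7 rose, from a sum of 15.1 to 47.6 FPKM to one of 365 to 2412 FPKM, and of 7 macrophage genes 5, 7 and 7 rose, from 596 to 1285 FPKM to between 1257 and 2527 FPKM. Of 7 fibroblast genes 5, 3 and 3 fell and 0, 1 and 1 rose, with sums of 9332 to 23474 FPKM in unwounded libraries and 6079 to 12783 FPKM in wounds. Of 7 epidermis genes tested 2, 3 and 3 rose, and the sum was between 7383 and 15214 FPKM before and between 12491 and 22446 FPKM after wounding. Of 3 salivary or lacrimal gland genes tested, 0, 2 and 2 rose and 1, 1 and 1 fell, with sums of at most 26.4 FPKM. Of 6 widely expressed genes 2, 4 and 3 rose. FPKM are shares of a library, and the part of these changes in cell makeup in the lower values of the muscle genes was not tested. In unwounded abdomen mice 2 and 3, which were low in the muscle genes, the adipocyte sums were 909.8 and 1254 FPKM and the epidermis sums 13109 and 15214 FPKM. Their smooth muscle sums were 224 and 353 FPKM, the latter the highest of the unwounded libraries.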

How the data were processed

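RNA was measured in 24 libraries, 1 wound and 1 unwounded library from each of 12 mice, with 4 mice per site, and the labels gave every library its site, state and mouse. The authors deposited FPKM values per gene and library, made at their sequencing provider. Reads were aligned to GRCm38 (mm10) with HISAT2 and to transcripts with Bowtie2 (version 2.2.5), and RSEM (version 1.2.12) quantified them. A second deposited table holds the results of DESeq2 for the comparisons of the authors (18 columns, fold changes and adjusted p-values) and was not used. FPKM hold no counts, so depth and counting error are unknown, and the number of libraries limits the precision. Steps in the lowest values of 9 genes put relative depth between 0.923 and 1.04. Gene positions came from RefSeq for GRCm38, matched for 44 of 44 members.

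Values were analysed as log2(FPKM + 0.5) in R (version 4.3.3) with limma (version 3.58.1, statmod 1.5.0), with a trend and robust moderation. A gene was tested when it reached 0.5 FPKM in 4 or more libraries of the fit, and p was adjusted by Benjamini-Hochberg over all genes tested, with a threshold of 0.05. Sites were compared in the 12 unwounded or the 12 wound libraries, and wound effects over all 24 with a term for each mouse, with an F test of their differences. The spread is shared by the sites, and the p-values rest on separate mice. Both libraries of a mouse deviated together, with mean r across genes of 0.322, 0.348 and 0.281 for abdomen, back and cheek (lowest -0.030), against -0.108, -0.116 and -0.0958 for different mice. Ratios were tested by exact permutation or exact sign changes.

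Named genes followed a rule: the myosin heavy chains, the 2 members of highest unwounded mean in each role, both genes of 6 fast and slow pairs, the 4 regulators and the largest changes called, with any other member by its range. From the other lists only the gene of highest mean and the largest changes called were named. The lists were other sarcomere and Z disc genes, excitation-contraction coupling, energy, neuromuscular junction and membrane, myogenic and regenerating muscle, smooth muscle, heart muscle, adipocytes, epidermis, neutrophils, macrophages, fibroblasts, salivary or lacrimal gland and widely expressed genes, of which 136 of 139 genes were in the table. The members and lists were chosen with earlier results of these data known. Alternatives were other pseudocounts, no filter, median-ratio scaling, plain moderation, a replicate block, other sets of libraries, a threshold of 0.001 and each mouse left out.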

Additional observations from a re-analysis of the deposited data

Results flagged for a closer look

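In groups of 4 libraries a gap far larger than the rest of the range was found in 8 of 266 groups tested, where chance flags about 1 in 20 groups. All 8 were groups of member values. Each value is the gap of the far library to its nearest neighbour, divided by the range of the group. In unwounded skin these were Myl2 in the abdomen (1.0, with 0.10 FPKM in mouse 2 and 0 in the others) and Trim63 in the cheek (0.90, with 26.7 FPKM in mouse 2). In abdomen wounds they were Tnni1 (0.897, with 10.6 FPKM in mouse 2, the lowest) and Nrap (0.918, with 15.1 FPKM in mouse 4, the highest). In back wounds mouse 3 was the lowest for Mylpf (0.848, at 545 FPKM), Smpx (0.851, at 17.4 FPKM) and Atp2a1 (0.904, at 171 FPKM). In cheek wounds it was Myh7 (0.843, with 0.70 FPKM in mouse 4, the highest).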

How the results depend on the processing

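No member called reversed its direction under the alternatives run for it, while 147 of 5704 values of uncalled members changed sign, as did Myh4 for unwounded back against abdomen (0.45, and -0.43 without abdomen mouse 2). Of the values of single genes called, 522 kept their side of the threshold and 60 lost it under other settings, and 706 kept and 198 lost it when a mouse was left out. For unwounded back against abdomen, the 2 members called became 1 with a pseudocount of 0.1, with median-ratio scaling and with a replicate block, 16 with all 24 libraries in 1 fit, and 1 to 2 without 1 mouse. For unwounded cheek against abdomen, 2 became 0 with a pseudocount of 0.1 and with the replicate block, 15 with all 24 libraries, and 0 to 5 without 1 mouse. For unwounded cheek against back, 0 became 1 with a pseudocount of 0.1 (Tnnt1), without a filter, with plain moderation and without abdomen mice 2 and 3 (Myh4), 3 with all 24 libraries (Myh7, Myl2 and Tnnt1), and 0 to 1 without 1 mouse. Myh7 and Myl2 entered the fit of all 24 libraries through cheek libraries alone, so their place in that count says nothing beyond their values. The abdomen wound count of 3 ranged from 3 to 11 without 1 mouse. The back wound count of 34 became 5 at a threshold of 0.001 and 21 to 39 without 1 mouse. The cheek wound count of 11 became 22 with plain moderation, 38 with the 8 libraries of the site and also without abdomen mice 2 and 3, 2 at a threshold of 0.001, and 3 to 34 without 1 mouse. Cheek against abdomen wounds went from 19 to 1 with all 24 libraries, and 8 to 29 without 1 mouse. Cheek against back wounds went from 5 to 3 with a pseudocount of 0.1 and without a filter, 2 with median-ratio scaling, 1 with the replicate block, 0 with all 24 libraries, and 0 to 7 without 1 mouse. Members whose wound effect differed between sites went from 0 to 1 with a pseudocount of 1 (Vgll2) and 0 to 4 without 1 mouse. Ratios past the threshold in wounds numbered 5, and 4 to 6 without 1 mouse, a count that includes the pairs with Myh7 and Myl2, whose slow gene was near 0. It also includes the pair with Tnnc1, which was near 0 in unwounded abdomen and back. The cause of these shifts was not tested. Shares of all genes called are not given for the alternatives, so these counts describe the dependence of the calls alone. Mouse numbers across sites share only a number, with a mean r of -0.027 in unwounded and -0.051 in wound libraries, so the block there pairs unrelated mice. Median-ratio scaling moved the median of all genes from -0.12 to 0.00 for unwounded back against abdomen and from 0.14 to 0.00 for cheek against back, where 10 uncalled members changed sign, each within 0.15 of 0. Leaving out 1 library in the site tests of ratios leaves 3 against 4, with a smallest p of 0.0571, and was not run. Dropping abdomen mice 2 and 3 was chosen after seeing the data, with tests only for comparisons without the abdomen.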
